A study of Drosophila melanogaster with 54 samples.

Results

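The cytosolic ribosomal protein genes were taken as the protein-coding genes of Drosophila melanogaster whose symbol starts with RpL or RpS and a digit, or with RpLP and a digit, so that the mitochondrial genes (mRp) are left out. This gave 92 of 13945 protein-coding genes on the 6 chromosome arms. By symbol they were 38 genes of the small subunit, 50 of the large subunit and 4 of the stalk (RpLP). The rule used symbols alone and no binding value, but it was chosen with earlier results of these data known. 21 of the 92 carry a name that marks them as a copy of another member (ending in -like, a or b). The members are short, with a median length of 1315 bp against 2166 bp over all protein-coding genes.

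Bound regions came from ChIP-seq. Kc167 cells, which derive from Drosophila embryos, were transiently transfected with a plasmid carrying a GFP fusion under the copper-inducible metallothionein promoter. Expression was induced with 1 mM copper sulphate for 4 h, the cells were fixed with 1% formaldehyde for 10 min, and cells within a common range of GFP brightness were sorted before ChIP with anti-GFP antibody. In the 8 Hox+Hth groups the plasmid also carried untagged Homothorax (Hth), and in the 8 Hox groups the Hox-GFP protein was expressed alone. The Hox proteins were Labial (Lab), Proboscipedia (Pb), Deformed (Dfd), Sex combs reduced (Scr), Antennapedia (Antp), Ultrabithorax (Ubx), Abdominal-A (Abd-A) and Abdominal-B (Abd-B). The last 2 of the 18 groups were GFP-Extradenticle expressed with Hth (Exd+Hth) and Hth-GFP alone (Hth). Kc167 cells lack Hth of their own and hold Exd in the cytoplasm unless Hth is supplied, so the Hox groups are without nuclear cofactors. Each group had 2 ChIP samples and 1 input sample, 54 samples in all. The study's read overview gives the same read numbers for the input of Abd-A and that of Abd-B, and likewise for the inputs of Abd-A+Hth and Abd-B+Hth, so these groups appear to share an input library.

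Each group is represented by 1 list of bound regions, which joins the regions found in both libraries, at a false discovery threshold (q) of 0.01 and again at the stricter q of 1e-10. No library has a value of its own in these lists, and the read numbers of the libraries were not used here. A comparison of 2 groups therefore has no replicate error and no test. Shares of members are given with a Wilson 95% interval, which covers counting error over genes only. The level set beside them is the share of all protein-coding genes, or of the other genes weighted to the members' lengths (10 length classes). For the q 1e-10 threshold Exd+Hth was not analysed here. The Ubx, Abd-A and Abd-B libraries, with and without Hth, were sequenced on another platform than the rest, and platform and protein cannot be told apart for them.

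Ribosomal proteins and ribosomal RNA make up the ribosome, which translates all cellular mRNA. In Drosophila most of these genes are needed in a double dose, and loss of a copy gives the slow-growing, short-bristled Minute phenotype. They are among the most strongly and evenly transcribed genes of any growing cell, and many start transcription at a pyrimidine stretch, the TCT initiator, in place of the initiator used by most other genes. Hox proteins are known for setting segment identity through developmental regulators, alone or with Exd and Hth, rather than for housekeeping genes.

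To show what lies at these starts, the TCT initiator was searched on the gene strand as CTTTT or CTTTC with its C within 5 bases of the outermost annotated start. It was found in 31 of the 92 members (33.7%), against 3.47% of all protein-coding genes. Other pyrimidine stretches, or these letters further from the annotated start, were not counted. RpL22, RpL6 and RpS14b, for example, have CTTTT just beyond that distance. The first set shows members that differ widely in binding, each as 27 bases of the dm6 reference on the gene strand with the annotated start as base 13 and the matched initiator in capitals. RpL23A and RpL3 were near regions of 14 of the 16 Hox groups and RpS5a of 13, whereas RpL18, RpL27 and RpS5b had none.
RpL23A, chr3L:1668640-1668666, minus strand: tgcccctcagttttcCTTTTcatttct
RpL3, chr3R:11221882-11221908, plus strand: aagtcggaatcgtttCTTTTccgtttt
RpS5a, chrX:17148250-17148276, minus strand: actgccgtaacatgttCTTTTtcaggc
RpL18, chr3L:7241337-7241363, minus strand: gcagccacactattttCTTTCttttgg
RpL27, chr3R:25685037-25685063, minus strand: ctctaaaatctccccttCTTTTctttt
RpS5b, chr3R:14901549-14901575, minus strand: tccttttaccgtttCTTTTtcatcctc
The same initiator thus stood at starts with many regions and at starts with none. Of the 73 members near a region of at least 1 Hox group 21 had it, and of the 19 others 10 had it.

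The second set shows a motif that members carried more often than other genes, the DNA replication-related element (DRE, TATCGATA, bound by the housekeeping factor Dref). Searched on both strands from 250 bp before to 50 bp after the outermost start, it was in 28 members (30.4%), against 9.37% of all protein-coding genes. The copies of 3 members with many regions and of 2 with none are printed on the gene strand, with the DRE in capitals.
RpS14a, chrX:7933668-7933695, plus strand: acacactcccTATCGATAagctatcgcc
RpS6, chrX:7901369-7901396, minus strand: gagcacgaacTATCGATAtgcggcggta
RpL26, chr3L:18898851-18898878, plus strand: atgacagtgtTATCGATActagctgaat
RpL27, chr3R:25685074-25685101, minus strand: tgccactaagTATCGATAaaaagacgac
RpS7, chr3R:30209010-30209037, minus strand: cctgcaactgTATCGATAgtatcgcaca
RpS14a was near regions of 12 Hox groups, RpS6 of 11 and RpL26 of 8, whereas RpL27 and RpS7 were near none. Members with a DRE were bound by a Hox+Hth group in 35.3% of cases on average, and members without it in 33%. In the Hox groups the values were 30.8% with a DRE and 36.1% without. Among the other genes the difference was wider, with 34.5% against 21.7% in the Hox+Hth groups.

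The M1BP core (GGTCACAC, both strands) was in 15.2% of member promoters and 7.71% of all, and the E-box (CACGTG) in 9.78% and 4.24%. Motifs of the kind Hox proteins bind were also searched. A HoxB match (TTTATGA, its variant TTTATGG, the motif TTTATTA and also TTTATTG) was in 35.9% of member promoters and 39.1% of all, and an Exd-Hox match (TGATTAAT, the form TGATTGAT or the form TGATTTAT) in 4.35% and 6.82%. A HoxA match (TTAATGA or TTAATTA, of which the second contains TAATTA) was in 26.1% of member promoters (interval 18.2 to 35.9%) and 19.1% of all. Within the central 200 bp of the 524 regions at member starts, summed over the 16 Hox groups, an Exd-Hox match stood in 1.34%, against 4.36% of the 46719 regions at other starts. A DRE stood in 14.1% of the regions at members and 4.67% of those at other genes. The same start can enter these sums from up to 16 lists, so starts with many regions weigh more. By single list the DRE share at members ran from 0 to 33.3%, and it was above that at other genes in 14 of the 16. A HoxA match stood in 9.54% of the regions at members and 12.2% of those at other genes. A match describes the letters and is not a binding site.

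In the Hox+Hth groups a region lay within 500 bp of a start for 33.7% of members on average (SD over the 8 proteins 25.1 points), against 14.6% of other genes of the same lengths. In the Hox groups it was 34.5% (SD 18.4 points), against 13.8%. Among all other protein-coding genes, whatever their length, the means were 22.9% and 22.4%. In all, 76 members (82.6%, interval 73.6 to 89%) had a region near a start in at least 1 of the 18 groups at q 0.01, against 52.9% of all protein-coding genes. For the 16 Hox groups alone it was 73 members (79.3%) against 49.2% of all. The members' share was above that of other genes of the same lengths in 17 of 18 groups, and the lower bound of its interval was above it in 16. Against all other genes, whatever their length, the lower bound was above in 10 of 18 groups.

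The highest counts were in Dfd+Hth and the Abd-B groups. Dfd+Hth had a region near the start of 67 members (72.8%, interval 63 to 80.9%), against 44.3% of all genes, and Dfd alone of 43 members (46.7%), against 31.5%. Abd-B+Hth had 61 members (66.3%), against 37.3% of all, and Abd-B 62 (67.4%), against 40.4%. These 4 lists are among the longest, and the share of all genes was also highest there.

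Scr alone held about as many members as Dfd alone. Scr+Hth had 31 members (33.7%; all genes 25.7%) and Scr 44 (47.8%; all genes 29.7%). Ubx+Hth had 35 (38%; all genes 21.2%) and Ubx 28 (30.4%; all genes 15.7%). Ubx thus held a larger share of members than Abd-A, which had 27 with Hth (29.3%; all genes 24.4%) and 25 without (27.2%; all genes 22.8%), although more genes of all kinds were near an Abd-A region. Antp+Hth had 7 members (7.61%; all genes 7.59%) and Antp alone 27 (29.3%; all genes 14.7%).

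Lab and Pb had few in both states. Lab+Hth had 14 members (15.2%; all genes 9.91%) and Lab 13 (14.1%; all genes 9.28%). Pb+Hth had 6 (6.52%, interval 3.02 to 13.5%), against 13.4% of all genes and 6.99% of other genes of the same lengths. Pb had 12 (13%), against 15.7% of all genes. Pb was the only protein whose shares did not exceed those of all genes, and Lab, near fewer starts in all, had 3.31 times (with Hth) and 3.4 times (alone) the share of other genes of the same lengths.

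**Figure D1:**
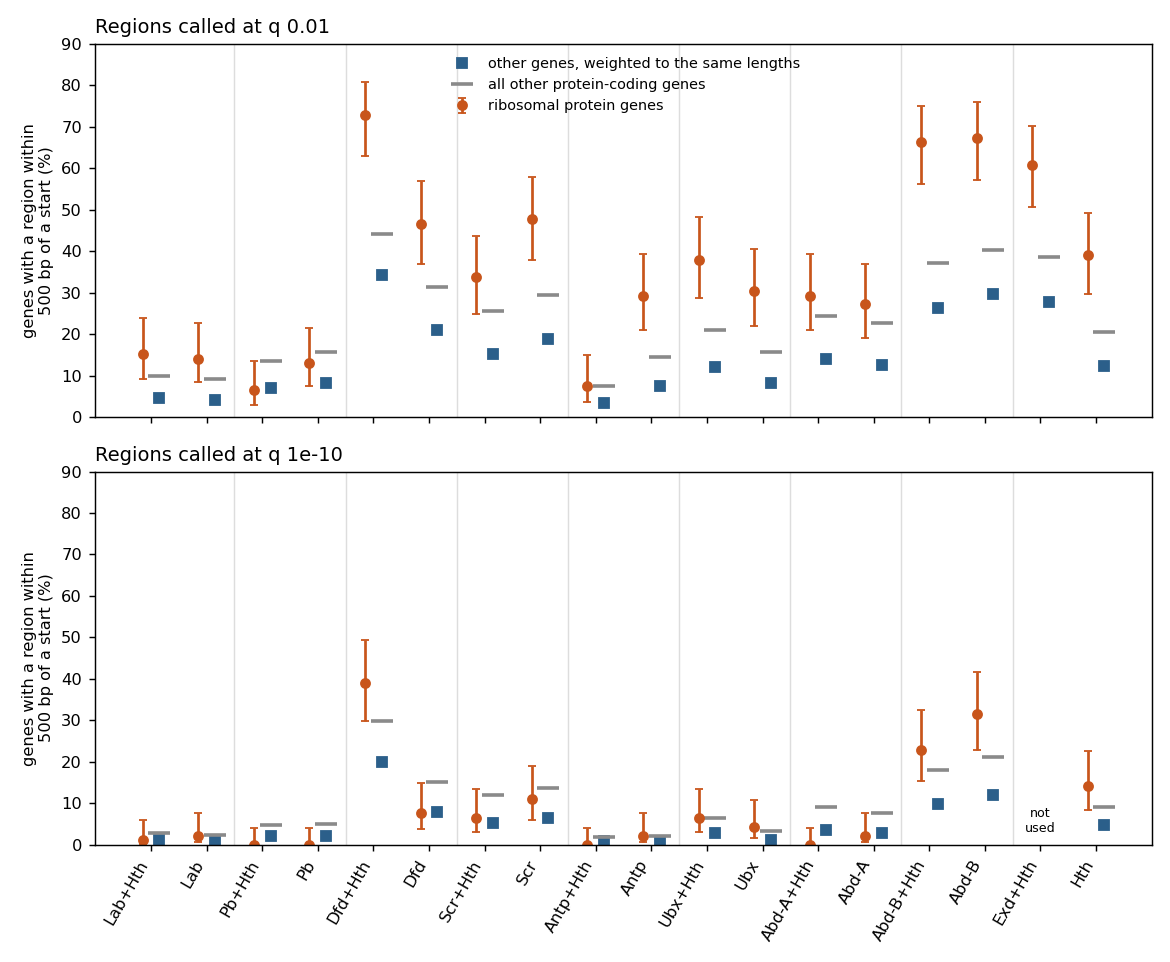
Percentage of genes with a bound region within 500 bp of a start (vertical axis) in each group (horizontal axis), at q 0.01 above and q 1e-10 below. Orange points are the 92 ribosomal protein genes with their Wilson 95% interval, blue squares the other genes weighted to the same lengths, grey bars all other genes; at q 0.01 the orange point is above the blue square in 17 of 18 groups, at q 1e-10 in 10 of 17.

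Of the cofactor lists, Exd+Hth had a region near 56 members (60.9%; all genes 38.9%) and Hth alone near 36 (39.1%; all genes 20.6%), and all 36 were also near an Exd+Hth region. Of the 34 members without a start of another kind of gene within 1000 bp, 15 (44.1%) were near an Exd+Hth region and 7 (20.6%) near an Hth region, and of the 58 members with such a neighbour 41 (70.7%) and 29 (50%). 3 members, RpS7, RpS27A and RpS28-like, were near an Exd+Hth region and near no Hox region (3.26%; all genes 3.72%).

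Over a wider area, a region lay within 1000 bp of the gene body of 78 members in Dfd+Hth (84.8%; all genes 57%), 58 in Dfd (63%; 42.6%), 10 in Antp+Hth (10.9%; 14.1%), 31 in Antp (33.7%; 21.5%), 68 in Exd+Hth (73.9%; 51.1%) and 46 in Hth (50%; 29.6%). By this measure 4 of the 18 groups were below the level of all genes: Antp+Hth, Lab with 14 members (15.2%; all genes 17.1%), Pb+Hth with 15 (16.3%; all genes 22.9%) and Pb with 21 (22.8%; all genes 24.6%). Some members were near regions only in this wider area: RpL8, which forms part of the peptidyl transferase centre, had a region within 1000 bp of its body in 15 of 18 groups and none near its start, and RpS9 in all 18, with 2 Hox groups at its start.

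At q 1e-10 the excess of the mean share over other genes of the same lengths was smaller. The mean share did not exceed that of other genes in general. The mean share of members was 9.51% in the Hox+Hth groups and 7.61% in the Hox groups, against 5.66% and 4.23% of other genes of the same lengths. Over all other protein-coding genes, whatever their length, the means were 10.6% and 8.8%. 45 members (48.9%) had a region in at least 1 of 17 groups, against 34.2% of all genes. No Hox+Hth group had a region near a start of 54 members (58.7%; all genes 68.1%). No Hox group without Hth had one near 60 members (65.2%; all genes 75%). The members' share was above that of all other genes in 6 of 17 groups. Only in Abd-B was the lower bound of the members' interval above it.

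Abd-B and Dfd+Hth still had the most members. Dfd+Hth had 36 (39.1%; all genes 29.9%) and Dfd 7 (7.61%; all genes 15.1%). Abd-B+Hth had 21 (22.8%; all genes 17.9%) and Abd-B 29 (31.5%; all genes 21.2%). Hth had 13 (14.1%; all genes 9.21%). For Dfd the change of threshold thus put members below all genes without Hth and left them above with it. Other genes of the same lengths had 7.85% in Dfd, close to the members' share, and 20% in Dfd+Hth.

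The other lists held few. Scr+Hth had 6 members (all genes 12.1%) and Scr 10 (all genes 13.7%). Ubx+Hth had 6 (all genes 6.45%) and Ubx 4 (all genes 3.28%). Abd-A+Hth had 0 (all genes 8.94%), which allows a share of up to 4.01% by the Wilson interval, and Abd-A 2 (all genes 7.52%). Antp+Hth had 0 (all genes 1.73%) and Antp 2 (all genes 2.2%). Pb+Hth had 0 (all genes 4.67%) and Pb 0 (all genes 4.88%). Lab+Hth had 1 (all genes 2.84%) and Lab 2 (all genes 2.42%). In 4 groups (Pb+Hth, Pb, Dfd and Abd-A+Hth) the upper bound for members was below the share of all other genes. Other genes of the same lengths had 2.13%, 2.02%, 7.85% and 3.45% in these groups, each within the members' interval.

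Of the member starts with a region at q 0.01, a smaller share also had one at q 1e-10 than of other genes of the same lengths in 16 of 17 groups, but the upper bound of the interval was below the other genes' share in only 3 (Pb, Dfd and Abd-A+Hth). For Abd-A+Hth it was 0 of 27 members against 24.5% of other genes of the same lengths, for Dfd 16.3% (7 of 43) against 37.5%, and for Pb 0 of 12 against 24.4%. Abd-B went the other way, with 46.8% of members (interval 34.9 to 59%) against 40.2%. Against other genes of any length the members' share was lower in all 17 groups, and the upper bound was below in 8. Regions at member starts were also narrower. In Dfd+Hth their median width was 554.5 bp against 707 bp at other starts, and the median was smaller at members in 17 of 18 groups, all but Antp (452 against 435 bp).

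The regions sat on the start itself and just upstream. Coverage of members was highest within 100 bp of the outermost start in 17 of 18 groups. In Abd-B the start itself lay in a region for 64.1% of members, against 22.4% of other genes of the same lengths, and in Dfd+Hth for 63%, against 26.3%. At 500 bp downstream no member was covered in 11 of the 18 groups, where 0.299 to 2.5% of other genes of the same lengths were covered. In 5 groups more members than other genes were covered there, for example 8.7% against 4.77% in Dfd+Hth and 9.78% against 4.75% in Exd+Hth. In Scr, 16.3% of members were covered 500 bp upstream and 0% downstream, and other genes had 7.46% upstream and 2.29% downstream. The centre of the region lay upstream of the start more often at members than at other genes in all 18 groups, for example in 91.4% of regions against 65.5% in Ubx+Hth.

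**Figure D2:**
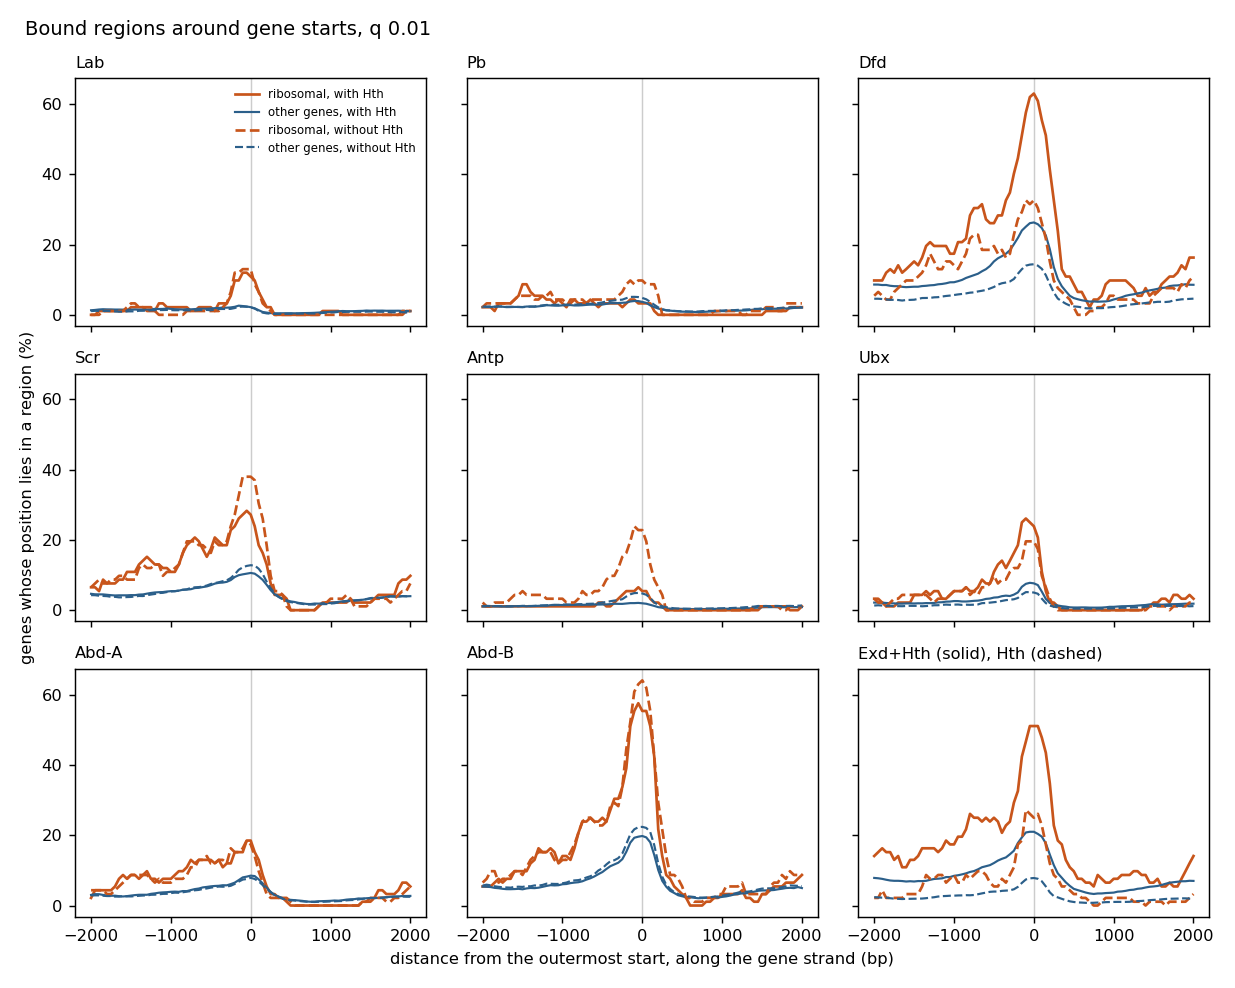
Percentage of genes whose position lies inside a region (vertical axis) by distance from the outermost start in bp (horizontal axis, negative is upstream), 1 panel per Hox protein and 1 for the cofactors, at q 0.01. Orange lines are ribosomal protein genes, blue lines other genes weighted to the same lengths, solid with Hth (or Exd+Hth), dashed without; in the Antp panel the solid orange line, at 5.43% on the start, is well under the dashed one at 22.8%.

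Many member starts lie close to another gene's. 58 of 92 members (63%) have the start of a gene outside the set within 1000 bp, and 42.8% of other genes have another start that close. Of the 524 regions at member starts in the 16 Hox groups, 333 (63.5%) had a member's start as the nearest coding start to their centre. When each region was given only to the nearest start, the mean share was 22.3% in the Hox+Hth groups and 22.6% in the Hox groups, and the difference from other genes of the same lengths was 12.9 and 13.9 points, against 19.1 and 20.7 points when a region counted for every gene it was near. Weighting other genes by the distance to their nearest neighbouring start in place of their length gave differences of 8.63 and 9.68 points.

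Individual members differed more than the groups did. In the 16 Hox groups 25 members were near regions of 9 or more (27.2%, all genes 19.8%), 36 of 3 to 8 (39.1%, all genes 19.2%), 12 of 1 or 2 (13%, all genes 10.1%), and 19 of none (20.7%, all genes 50.8%). Near regions of all 8 Hox+Hth groups was 1 member (1.09%, all genes 4.15%), and of all 8 Hox groups 4 members (4.35%, all genes 5.87%): RpL30, RpL22, RpL17 and RpL23A. Members were thus not more often near regions of all Hox proteins than genes in general. Among other genes of the same lengths the shares were 1.22% for all 8 Hox+Hth groups and 1.92% for all 8 Hox groups. The second is below the members' 4.35% but within its interval (1.7 to 10.7%). No region near a start in any of 18 groups was found for 16 members (17.4%, interval 11 to 26.4%), against 47.1% of all genes.

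**Figure D3:**
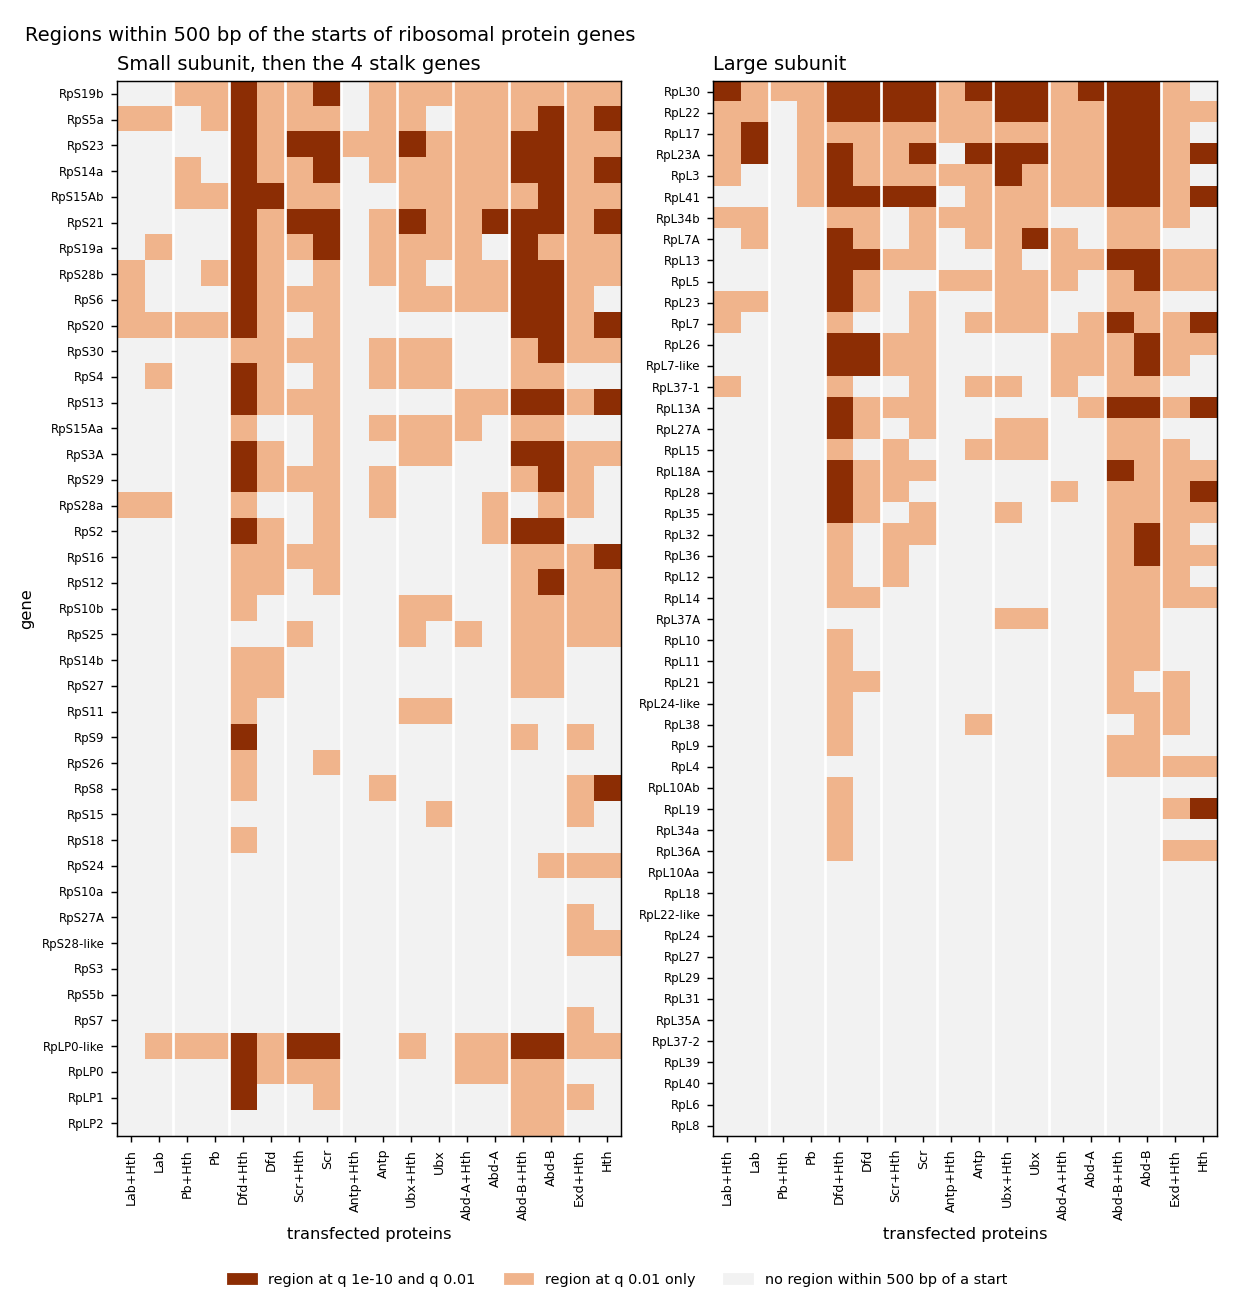
Each row is a ribosomal protein gene (1 small subunit gene is not drawn) and each column a group, with Hox+Hth left of Hox for each protein; dark cells mark a region within 500 bp of a start at q 1e-10, light cells at q 0.01 only, grey none. RpL30 (16 of 16 Hox groups) and RpL22 and RpL17 (15 each) head the large subunit, and 13 large subunit genes have no Hox region.

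Among large subunit genes, RpL30, an RNA-binding protein of the subunit interface, was near a region of all 16 Hox groups at q 0.01. At q 1e-10 it stood in 5 of the 8 Hox+Hth lists and 6 of the 8 Hox lists, the highest count of any member, and it was near an Exd+Hth region but no Hth region. Its 16 regions shared a stretch of 314 bp (chr2L:19009211-19009524), and their centres lay within 70 bp of a start. That stretch held a single match among the motifs searched, an M1BP core, shown in capitals on the plus strand because the stretch is common to all Hox lists.
RpL30, chr2L:19009262-19009289, plus strand: gtttgtgttgGTGTGACCgacgggggga
RpL22, a large subunit protein whose Drosophila form carries a long histone-like tail, was near regions of 7 Hox+Hth groups and 8 Hox groups, with Pb+Hth the missing list. RpL23A, which lies at the exit of the nascent peptide, was near regions of 6 Hox+Hth and 8 Hox groups, the missing lists being Pb+Hth and Antp+Hth. The shared stretches of RpL22 (197 bp) and RpL23A (282 bp) held no match to any motif searched.

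RpL41, the smallest ribosomal protein, was near regions of 5 Hox+Hth and 7 Hox groups and in 3 lists of each kind at q 1e-10. RpL3, at the peptidyl transferase centre, was near regions of 7 and 7 groups, and at q 1e-10 in 3 Hox+Hth lists and 1 Hox list. RpL13 was near regions of 5 Hox+Hth and 4 Hox groups, with 2 lists of each kind at q 1e-10. The starts of RpL13, RpL3 and RpL41 lie 84, 255 and 182 bp from that of a gene outside the set.

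In the small subunit the counts did not reach those of RpL30. RpS23, a protein of the decoding centre, was near regions of 6 Hox+Hth and 6 Hox groups, but the regions were centred at -932 to -862 bp from a start in every Hox list (negative is upstream), beside a second region of Abd-B at 89 bp, so that all but that second region reached the 500 bp window only with their edge. RpS21 was near regions of 5 Hox+Hth and 6 Hox groups, and at q 1e-10 in 4 and 3 lists, the highest count in the small subunit. Its regions in the Hox lists at q 0.01 were centred at -489 to -310 bp. A start of RpS21 lies 292 bp from that of a gene outside the set. RpS6, the substrate of the growth-regulating S6 kinase, was near regions of 6 Hox+Hth and 5 Hox groups. The median small subunit gene was near regions of 6 of 16 groups and the median large subunit gene of 4. The mean share was 5.63 points higher in the small than in the large subunit, a difference that is within counting error (-13.7 to 24.9 points) and turned to -1.03 points with a window of 100 bp.

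The 4 genes counted as stalk by their RpLP symbol were all near regions of both Abd-B groups. Of these, RpLP0, RpLP1 and RpLP2 encode the stalk proteins, which recruit translation factors to the ribosome. RpLP0-like, which in yeast has an assembly factor as its counterpart, was near regions of 6 Hox+Hth and 6 Hox groups and in 5 of the 16 lists at q 1e-10. RpLP0 was near regions of 4 and 4, RpLP1 of 2 and 2, and RpLP2 of 1 and 1, the Abd-B groups alone. Starts of RpLP0-like, RpLP0 and RpLP1 lie 87, 111 and 300 bp from that of a gene outside the set.

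No region lay within 1000 bp of the gene body in any of 18 groups for 9 members (9.78%), against 33.4% of all genes. They were RpL6, RpL18, RpL27 and RpL31, which are single-copy large subunit genes, and RpL10Aa, RpL22-like, RpL37-2, RpS5b and RpS10a, which are copies of another member. RpS3, the small subunit protein at the mRNA entry site, and RpL40, which is made as a fusion with ubiquitin, also had no region near a start.

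Copies of the same protein gene differed widely. RpS5a was near regions of 13 Hox groups and RpS5b, the copy known for expression in the germline, of 0. RpL34b was near regions of 11 and RpL34a of 1, RpS10b of 5 and RpS10a of 0, and RpL37-1 of 8 and RpL37-2 of 0. RpL10Ab was near regions of 1 group and RpL10Aa of 0. RpS19a and RpS19b did not follow this pattern, with 11 and 13. RpS28b was near regions of 11 groups and RpS28a of 7, and RpS15Ab of 12 and RpS15Aa of 8.

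RpS14a and RpS14b are neighbours on the X chromosome, with 1156 bp between their starts. RpS14a was near regions of 12 Hox groups, 4 of them at q 1e-10, and RpS14b of 4 groups, Dfd and Abd-B with and without Hth, none of them at q 1e-10. The regions of RpS14a were centred at -481 to -260 bp from its start in the Hox lists. A start of a gene outside the set lies 391 bp from that of RpS14a. Reads that map to more than 1 place were dropped in processing. Within 500 bp of the start, 89.7% of 50-base windows of RpS14a and 91.1% of those of RpS14b occur only once in the genome. All other pairs had 100% for both copies, except RpS15Ab with 86.1%.

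Of the other -like members, RpL7-like was near regions of 4 Hox+Hth and 4 Hox groups and RpL24-like of 2 and 1. In yeast the counterparts of both are ribosome assembly factors. RpS28-like was near none, with regions of Exd+Hth and Hth centred 579 and 564 bp downstream of its start. Starts of genes outside the set lie 0 bp from a start of RpL7-like and 156 bp from that of RpL24-like.

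The lists with Hth held more members than the lists without for some Hox proteins and fewer for others, and the mean difference over the 8 proteins was -0.815 points. With Dfd, all 43 members near a region without Hth had one with Hth and 24 more had one only with Hth, a difference of 26.1 points against 12.7 points among other genes. Of the other genes near a Dfd region without Hth, 99.7% also had one with Hth. The Dfd+Hth list held 12050 regions and the Dfd list 8448, with 5.98 and 5.09 per 1000 of them at member starts. The study's read overview gives more mapped reads for the Dfd+Hth libraries than for the Dfd libraries. For Antp it gives fewer with Hth. The part of read number was not tested. With Antp, 7 of 27 members also had a region with Hth and none had one only with Hth, a difference of -21.7 points against -7.05 points among other genes. The 7 are 25.9% of the members near an Antp region without Hth, and the same share among other genes was 41.5%. The Antp+Hth list held 2880 regions and the Antp list 3507, whereas the number of regions at member starts was 2.43 per 1000 in Antp+Hth and 7.7 per 1000 in Antp.

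Scr and Pb had fewer members with Hth too. With Scr, 26 of 44 members had a region in both lists and 5 only with Hth (-14.1 points, other genes -3.9), and with Pb 5 of 12 had one in both and 1 only with Hth (-6.52 points, other genes -2.29). The share of calls without Hth found again with Hth was 59.1% for Scr (other genes 81.2%) and 41.7% for Pb (other genes 75.5%). With Ubx, 27 of 28 members (96.4%, other genes 93%) had a region in both and 8 only with Hth (7.61 points, other genes 5.52). The difference was 1.09 points for Lab (other genes 0.628), 2.17 for Abd-A (other genes 1.58) and -1.09 for Abd-B (other genes -3.14). For every protein the difference had the same sign in members as in other genes. In points it was larger in members for all but Abd-B, where it was smaller. As a ratio it was smaller for Ubx, with a log2 ratio of 0.32 in members and 0.44 in other genes. There is 1 list for each state, so none of these differences was tested.

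**Figure D4:**
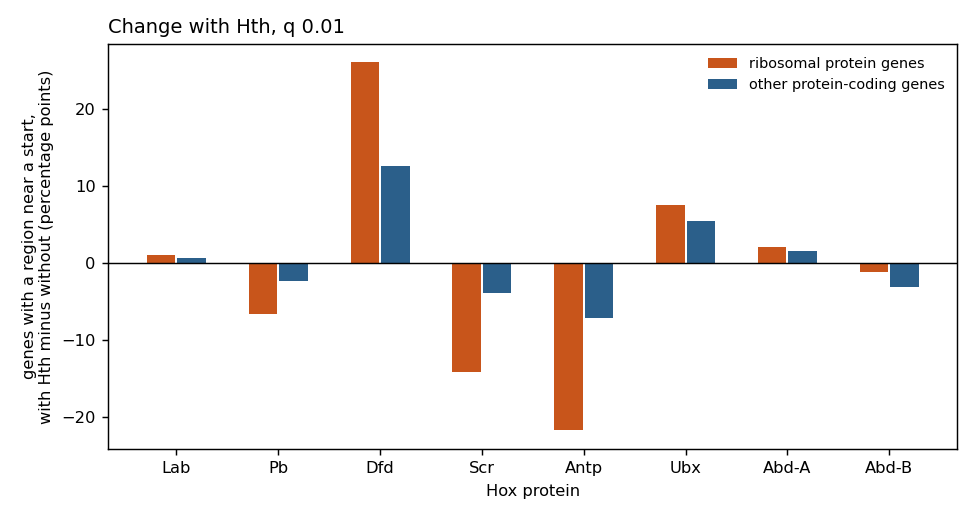
Difference in the percentage of genes with a region within 500 bp of a start between the list with Hth and the list without for each Hox protein (vertical axis, percentage points, with Hth minus without), at q 0.01. Orange bars are the 92 ribosomal protein genes and blue bars other protein-coding genes; Dfd stands at 26.1 points for ribosomal protein genes and Antp at -21.7 points.

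Among single members, 23 were near regions of more Hox proteins with Hth than without (25%, all genes 17.2%), 27 of fewer (29.3%, all genes 14.7%) and 42 of the same number (45.7%, all genes 68.1%). The last class includes genes near no Hox region (20.7% of members, 50.8% of all genes), so the shares for more and fewer also depend on how many were near any. Of the 73 members near a Hox region 23 had more and 27 fewer, and of the 6855 such genes in all 2402 and 2052. RpS25, a small subunit protein used by some viral mRNAs for entry, had the largest excess with Hth, with 4 Hox proteins with Hth (Scr, Ubx, Abd-A and Abd-B) and 1 without (Abd-B). RpL28 had 4 with Hth and 2 without, and RpS9 had 2 and 0. RpS28a had 2 with Hth and 5 without, RpS4 had 3 and 6, and RpL23A had 6 and 8. Other members tied with RpL28, RpS9 and RpL23A at this threshold. Starts of genes outside the set lie 248 bp from that of RpS25, 381 bp from a start of RpL28 and 194 bp from that of RpS28a. The 7 members with an Antp region in both lists were RpL3, RpL5, RpL17, RpL22, RpL30, RpL34b and RpS23.

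Members on the X chromosome were near regions of more groups than those elsewhere. All 14 X-linked members were near a region of at least 4 of the 16 Hox groups, with a median of 10.5 and a highest count of 15 (RpL17 and RpL22). Of the 78 autosomal members 59 were near a region of any, with a median of 4 groups. In the Hox+Hth groups the mean share was 58.9% of X-linked members, against 17.8% of other X-linked genes of the same lengths, and in the Hox groups 59.8% against 17.4%. On the large autosomal arms the mean member share was 26.1 to 33% in the Hox+Hth groups. Other genes of the same lengths on the same arm had 12.9 to 16%, and other genes of any length there 21.2 to 23.4%. On X, other genes of any length had 26.2%. At q 1e-10 the X-linked members had 14.3% in the Hox+Hth groups and those on 2L 13.2%, and the difference between arms was not tested at either threshold. Without X-linked genes the difference from other genes of the same lengths was 15 points in the Hox+Hth groups and 16.7 points in the Hox groups.

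**Figure D5:**
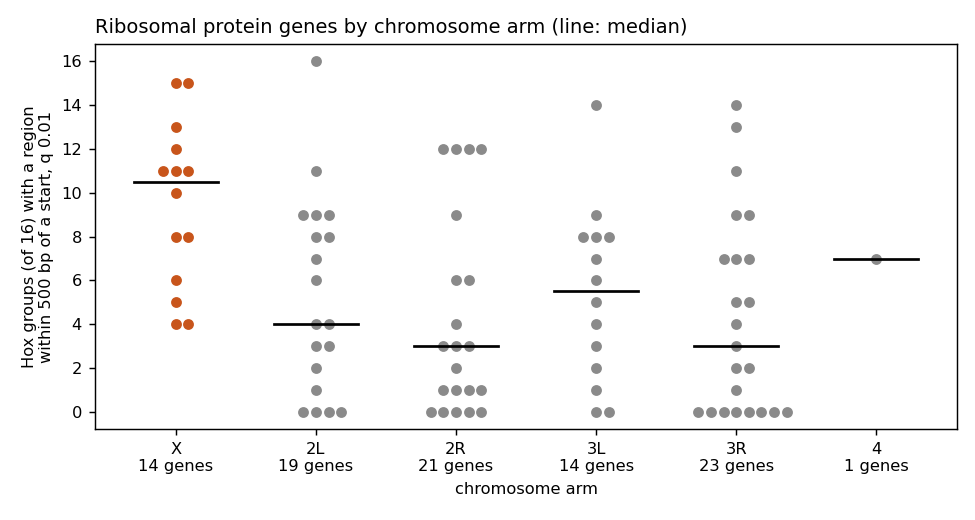
Number of Hox groups (of 16) with a region within 500 bp of a start at q 0.01 (vertical axis) for each ribosomal protein gene, by chromosome arm (horizontal axis); points are genes and lines medians. The 14 genes on X (orange) lie between 4 and 15, and genes at 0 are on other arms only.

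Members that hold a snoRNA gene (a guide RNA for ribosomal RNA modification) in their body were near regions of more groups. The 28 such members had a median of 7 Hox groups and 27 of them were near a region of any, and the 64 others had a median of 4 and 46. Hosts are also longer, with a median of 1888 bp against 1126 bp, and the part of length was not tested.

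Other genes of translation were set beside the members, with no test. In the Hox+Hth groups the mean was 29.1% for 73 mitochondrial ribosomal protein genes and 32.9% for 54 translation factor genes, against 33.7% for the cytosolic members and 22.9% for all other protein-coding genes. It was 17.7% for 48 proteasome subunit genes. At q 1e-10 the translation factors had 11.8%, the mitochondrial genes 11.5%, the cytosolic members 9.51% and all other protein-coding genes 10.6%.

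Among 16 regulators of growth and of ribosomal gene transcription, 14 were near a region of at least 1 Hox+Hth group, against 47.8% of all genes, and 13 of at least 1 Hox group, against 44% of all genes, at q 0.01. Thor, the translation inhibitor 4E-BP, was near regions of 8 Hox+Hth and 7 Hox groups, and Trf2, the TBP relative that acts at TCT initiators, of 8 and 7. REPTOR, which acts downstream of TOR, and Xrp1, which drives the response to loss of a ribosomal protein gene, were each near regions of all 16 groups, and both were in 6 Hox+Hth and 5 Hox lists at q 1e-10. Myc, the activator of ribosome production, was near regions of 7 and 5. Max, its partner, and gig, a subunit of the TSC complex, were near none. Of 7 ribosome assembly genes 6 were near a region of a Hox+Hth group and 1 of them, Nop56, at q 1e-10. Of the ribosomal components with other names, sta (RpSA) was near regions of 6 Hox+Hth and 4 Hox groups and Rack1 of 3 and 5.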

How the data were processed

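ChIP-seq and input libraries of 18 groups of transiently transfected Kc167 cells were represented by deposited lists of bound regions (chromosome, start, end and group, with no signal value). The authors aligned reads to dm6 (Bowtie 1.2.2, uniquely placed reads only; versions from the submitters' notes), and regions were called per library against input with MACS2 2.1.1.20160309 at q 0.01 and q 1e-10. Regions over exons carried on the plasmids were removed, and overlapping regions of both libraries were joined. Genes and starts came from Ensembl release 115 (BDGP6.54), and sequence from the Release 6 genome. No region end passed the end of its chromosome arm in that genome. A gene counted as near a region when at least 1 bp of it lay within 500 bp of any annotated start. Other genes were weighted to the members' deciles of length. The Tor gene was matched as mTor. Overlaps were computed in Python 3.11.15 with numpy 2.4.6 and tested on simulated data. No p-value was computed, since there is 1 list per group. Read numbers per sample were not used here. Members, lists and alternatives were chosen with earlier results of these data known. Named genes were the members in most lists at q 1e-10 within each subunit (6 each, all of the stalk), those with no region within 1000 bp of the body, the 3 largest rises and falls with Hth, copies that differed by at least 4 groups, and -like members with a region. Ties were broken by the q 1e-10 count and then by symbol. RpL8, RpS3, RpS6, RpL40, RpL17, RpS7, RpS27A, RpL26, RpL5 and the copies differing by fewer than 4 groups were named after their values were seen, as were the sequences shown. Some single-gene results are not reported here.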

Additional observations from a re-analysis of the deposited data

How the results depend on the processing

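No paired analysis was possible because each list joins the 2 libraries of a group, and for the same reason no library could be left out in turn. Of 142 values under alternatives, 117 stayed within their counting interval (or within 1.5 times, for counts), 19 moved beyond it and 6 turned in sign. At q 1e-10 the mean share of members was 9.51% in the Hox+Hth groups and 7.61% in the Hox groups, the difference from other genes of the same lengths was 3.85 and 3.38 points, no member was near a region in all 8 groups of either kind (0 and 0), 47 members had no region in any group, 13 were near an Hth region, 14.6% had a region within 1000 bp of the gene body and regions at members numbered 1.9 per 1000. Giving each region only to the nearest start, an alternative chosen after seeing the data, gave mean shares of 22.3% and 22.6%. Weighting by the gap to the nearest start gave differences of 8.63 and 9.68 points. With no weighting at all the differences from other genes were 10.8 and 12.1 points. Without members near another gene's start, 9 members had no region, 7 were near an Hth region and 15 near an Exd+Hth region, out of 34 members in place of 92. The gene body alone gave 30.1% and a 5000 bp flank 60.8%, against 45.5% with 1000 bp. The change with Hth was 1.9 points at q 1e-10, 1.09 points without Scr, 2.17 points without Antp and 0 without Pb, so the mean over proteins has no settled direction. The subunit difference was -1.03 points with a 100 bp window, -0.744 points without named copies and -5.43 points without members near another gene's start. The cause was not tested. Leaving out single proteins moved the differences from other genes between 16.1 and 21.9 points in the Hox+Hth groups and between 18.3 and 23 points in the Hox groups. Exd+Hth at q 1e-10 was not run. No library of GFP alone was analysed here, and no list gives signal height.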
